A study of Homo sapiens with 9 samples.

Results

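Mitochondrial ribosomal protein genes were taken as every row of the deposited table whose symbol is MRPL or MRPS, then a number, then at most 1 letter from A to C. The rule found 77 genes of 26929, 48 named MRPL and 29 named MRPS, and it used no expression value. MV4-11 cells, a human cell line from acute myeloid leukaemia, were sequenced after 24 h of JPX-0700, JPX-0750 or DMSO, the solvent control. Each group held 3 libraries, 9 in all. The series title describes the compounds as degraders of both STAT3 and STAT5, transcription factors that relay cytokine and FLT3 signals. The labels give no dose and name no genetic change in the cells, and all 3 groups are the same cell line. The sources used here do not say whether replicates were separate cultures, so the p-values below measure the spread between these libraries, which may be technical.

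The mitochondrial ribosome translates the few messenger RNAs of the mitochondrial genome, which encode core subunits of the respiratory chain and ATP synthase. Its ribosomal RNAs come from mitochondrial DNA, while its proteins are encoded in the nucleus, made in the cytosol and imported. Many of these proteins descend from bacterial ribosomal proteins, and others were added in the mitochondrial lineage. Acute myeloid leukaemia cells are known to rely on oxidative phosphorylation, and inhibition of mitochondrial translation has been studied in this disease.

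DMSO libraries held 2701317 to 6305586 reads, JPX-0700 libraries 739418 to 1852375 and JPX-0750 libraries 726043 to 1941860. The libraries are 3′-end libraries. Intervals on shares of reads below cover counting error only, while intervals on log2 fold changes come from limma and the spread between libraries. Protein-coding genes took a mean of 98.2% of the reads in DMSO libraries, 81.4% after JPX-0700 and 78.7% after JPX-0750. In each group 1 library detected far fewer genes than the others: DMSO replicate 1 with 9816, JPX-0700 replicate 3 with 10027 and JPX-0750 replicate 3 with 10407. Of 9 myeloid markers CD33, FLT3, SPI1, LYZ and CEBPA had reads in all 9 libraries, while PTPRC was at 0 in 1 (JPX-0700 replicate 3), ITGAM in 3, MPO in 6 and CD14 in 9. Their normalised counts summed to 5773 to 9538 for DMSO, 2258 to 5035 for JPX-0700 and 1944 to 3943 for JPX-0750, so the sum was lower with treatment. LYZ alone held 4575, 7377 and 4055 in DMSO libraries. Of 7 tested markers 6 had a log2 fold change below 0 with each compound. LYZ alone was lower at a limma adjusted p under 0.05 with JPX-0750 (14.3%, against 0.0732% of all tested genes). With JPX-0700 0 of the 7 passed that threshold. FLT3 and SPI1 in JPX-0700 replicate 3, at 511 and 464, were above every DMSO library. The part of these markers in the results was not tested. The lists of other cell types summed to far less. The sums for 6 T and NK cell markers were 32.8 to 52.1, 22.4 to 80.6 and 6.85 to 68.2 in the same order, with NKG7 in all 9 libraries. For 6 epithelial and fibroblast markers they were 28.5 to 53.7, 5.56 to 50.7 and 27.3 to 129.9. EPCAM and CDH1 were at 0 in all 9 libraries, and KRT18 had reads in 8 libraries. COL1A1 was at 0 in every DMSO library and had reads in all 6 treated libraries. The 5 B and plasma cell markers reached at most 40.9 and the 6 erythroid and megakaryocyte markers at most 13.6.

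Of the 77 genes, 72 had a mean normalised count of at least 5 over the 9 libraries and were tested, 46 MRPL and 26 MRPS. MRPL49 was the tested member nearest to that minimum, with normalised counts of 1.80, 33.0 and 7.0 in DMSO libraries, 27.7, 14.9 and 0 after JPX-0700 and 34.2, 13.6 and 53.3 after JPX-0750. Its exons overlap those of FAU and SYVN1 on the opposite strand.

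The other 5 genes had almost no reads. MRPL23 and MRPS18B were listed at 0 in all 9 libraries, which allows up to 2.3e-05% of the pooled DMSO reads for a floor of 3 reads over the group. MRPS24 had 1 read, in JPX-0700 replicate 2. MRPL45, which contacts the inner membrane, had 8 reads over 3 libraries, of which 5 in DMSO, 1 in JPX-0700 and 2 in JPX-0750 libraries. MRPS36 had 18 reads in 4 libraries, and RefSeq lists this symbol as a synonym of KGD4, a subunit of the oxoglutarate dehydrogenase complex. The exons of MRPS24 overlap the read-through gene URGCP-MRPS24 on the same strand, and the sources used here do not say how reads that map to several genes were counted. A level near 0 in these 5 rows is therefore a level in the table, and cannot be told apart from reads assigned elsewhere.

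A few sequences from the starts of these genes are printed because the same letters recur at many of them. A window of 250 bases before to 50 after the start site was in the RefSeq table (GRCh38.p14) for 69 of the 77 genes. The 30-base stretches below run 5′ to 3′ on the strand of the gene, and capitals mark the match. In the first 5 it is the letters AAGATGGC, the core recognised by the transcription factor YY1. In the last it is GAANNTTC, a pair of facing heat shock element units.
MRPS27, chr5:72320206-72320235, minus strand: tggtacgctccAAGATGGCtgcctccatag
MRPS10, chr6:42217834-42217863, minus strand: tcgggaccggcAAGATGGCggcgcggacag
MRPS18A, chr6:43687764-43687793, minus strand: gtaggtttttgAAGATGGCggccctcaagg
MRPS18B, chr6:30617852-30617881, plus strand: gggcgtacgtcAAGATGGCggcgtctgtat
MRPL45, chr17:38297170-38297199, plus strand: tttgcgggaacAAGATGGCagcccccatac
MRPL18, chr6:159789815-159789844, plus strand: gggaagaggttGAACCTTCgcctcaaacga

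On either strand the YY1 letters were present in 20 of the 69 windows, or 28.99%, against 5.89% of 8569 windows of tested protein-coding genes and 3.91% of all 15842. They gave 21 matches, and in 15 genes a match began 0 to 40 bases after the start site. The ETS letters CCGGAAG stood in 28 windows, or 40.6%, against 20.9% of the tested genes' windows. The STAT letters TTCNNNGAA stood in 7 windows, or 10.1%, against 6.55%. The heat shock letters GAANNTTC were in 6 windows, 8.70% against 4.56%, and the opposite arrangement TTCNNGAA was in 9, 13.0% against 6.10%. CGCATGCG, the core of NRF1, a regulator of nuclear genes for mitochondria, was in 3, or 4.35% against 4.19%. The C/EBP-ATF letters TTGCATCA were in none of the 69. Every motif was searched on both strands, a match is a description of letters in this window only, and the overlap between motifs was not removed.

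The response of genes with and without these letters is given as a description, with no test. The 17 tested genes with a YY1 match had a median log2 fold change of -0.51 with JPX-0700 and -0.55 with JPX-0750, and the 48 without had -0.43 and -0.32. The 28 with ETS letters had -0.31 and -0.46, and the 37 without had -0.75 and -0.37. MRPS18B and MRPL45 carry the YY1 letters printed above and had 0 and 8 reads.

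**Figure D1:**
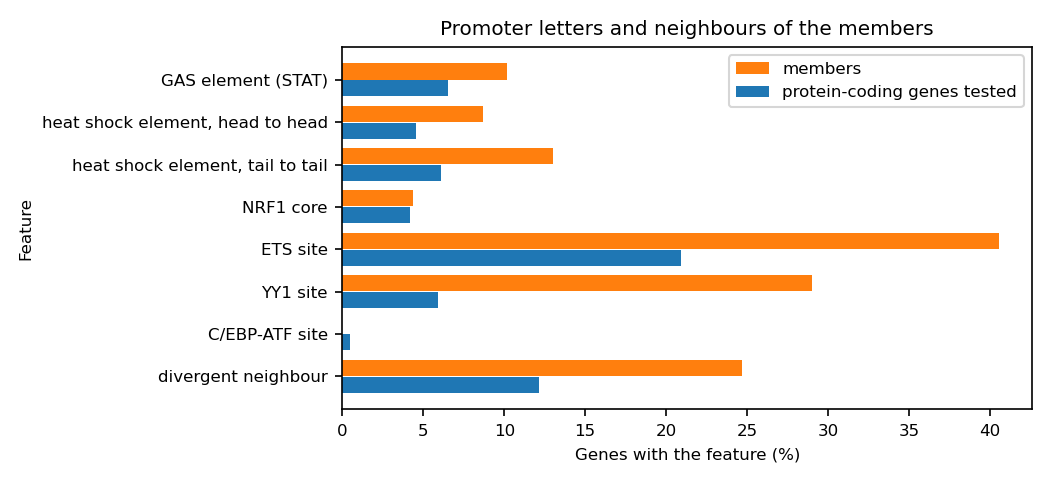
Share of genes (percent, x axis) whose start window holds each motif, or which have a divergent protein-coding neighbour, for the mitochondrial ribosomal protein genes and for tested protein-coding genes. The YY1 bar reaches 28.99% for the mitochondrial ribosomal protein genes against 5.89%, and the ETS bar 40.6% against 20.9%.

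A divergent neighbour was a protein-coding gene on the opposite strand that points away, with start sites at most 1000 bases apart. An overlap of up to 200 bases between the starts was allowed. In GENCODE 29 such a neighbour was present for 19 of the 77 genes, or 24.7%, against 1300 of 10688 tested protein-coding genes, or 12.2%. MRPL46 and MRPS11 are such a pair, 34 bases apart. MRPL47 faces NDUFB5 and MRPL36 faces NDUFS6, both of which encode complex I subunits. MRPL13 faces MTBP, the only partner tested that changed: MTBP rose with JPX-0700 by a log2 fold change of 4.82 (limma, adjusted p = 0.0173), beside -0.03 for MRPL13. The call on MTBP was lost in 4 of 19 alternatives, among them without DMSO replicate 1 or JPX-0700 replicate 3 (highest adjusted p = 0.068 in limma). The value of MTBP with JPX-0750 was 3.72 (limma, adjusted p = 0.0934).

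As a share of all reads on genes, the 77 genes were lower in every treated library than in every DMSO library. With DMSO they took 0.622%, 0.812% and 0.636% of the reads, a mean of 0.690% ± 0.106 (SD, n = 3). With JPX-0700 they took 0.363%, 0.409% and 0.437%, a mean of 0.403% ± 0.0377 (SD, n = 3), or 0.584 of the DMSO mean. With JPX-0750 they took 0.332%, 0.371% and 0.445%, a mean of 0.383% ± 0.0571 (SD, n = 3), or 0.554 of it. The widest counting interval, in JPX-0750 replicate 2, ran from 0.357% to 0.385% (95%, Wilson), far narrower than the gap to DMSO.

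Both subunits had the lower share. MRPL genes took 0.405% to 0.518% in DMSO libraries, 0.231% to 0.279% after JPX-0700 and 0.223% to 0.284% after JPX-0750. MRPS genes took 0.217% to 0.294%, 0.132% to 0.158% and 0.109% to 0.161%. Other shares moved with treatment too, and their part in this difference was not tested. The share on protein-coding genes is given above. MALAT1, a nuclear non-coding RNA, took a mean of 0.387% of the reads with DMSO, 6.03% after JPX-0700 and 6.15% after JPX-0750, and small structured non-coding RNAs took 0.136%, 9.31% and 12.3%. The 73 tested nuclear subunits of oxidative phosphorylation took 2.27%, 1.24% and 1.24%, ratios to DMSO of 0.547 and 0.547, close to those of the 77 genes. Counted within protein-coding reads alone, the 77 genes took 0.634% to 0.825% in DMSO libraries, 0.454% to 0.530% after JPX-0700 and 0.436% to 0.555% after JPX-0750, and the groups still did not overlap. The ratios to DMSO were then 0.704 and 0.691. In bulk libraries, fewer cells of a type within the culture and less RNA of these genes per cell cannot be told apart.

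On the authors' scaling the groups overlapped in the sum. The normalised counts of the 77 genes summed to 13818 to 19630 in DMSO libraries, 12360 to 22515 after JPX-0700 and 12163 to 14384 after JPX-0750. The means were 16178, 16156 and 12928. Replicate 3 lay above the DMSO range with JPX-0700 (22515) and within it with JPX-0750 (14384). The other treated libraries were below every DMSO library. Total normalised counts over all genes were 2172407 to 2425697 with DMSO and 3235064 to 5147615 in the treated libraries, so that equal normalised counts are a smaller share of a treated library.

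**Figure D2:**
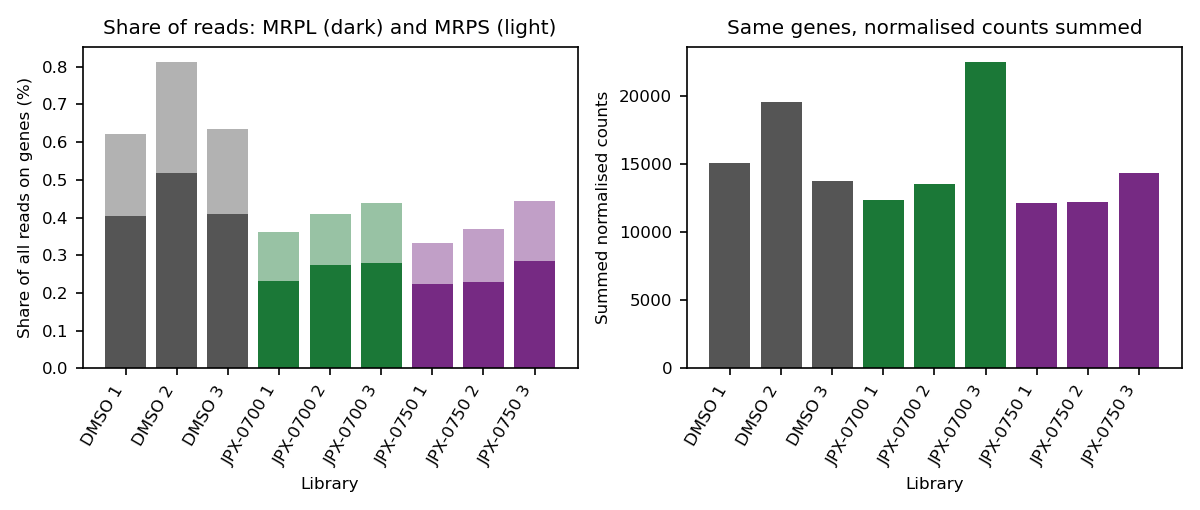
Left, percent of all reads on genes taken by MRPL (dark) and MRPS (light) genes in each of the 9 libraries; right, the summed normalised counts of the same genes. The 6 treated libraries lie between 0.332% and 0.445%, under the 3 DMSO libraries at 0.622% to 0.812%, while the sums on the right overlap.

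Gene by gene, the centre of the mitochondrial ribosomal protein genes lay below that of all tested genes with both compounds, and 1 gene passed the test. With JPX-0700 the median log2 fold change was -0.47 over the 72 tested genes and 0.14 over all 12301, and 50 of the 72 (69.4%) lay below 0, against 46.5% of all. With JPX-0750 the medians were -0.38 and 0.26, and 51 of the 72 (70.8%) lay below 0, against 42.5%. Both comparisons use the same DMSO libraries. Relative to all tested genes the medians were lower by 0.61 and 0.64 on the log2 scale. Other scalings moved the median of all genes by more than 0.1. It became -0.52 and -0.25 for JPX-0700 and JPX-0750 with the total count, and -0.13 and 0.01 with trimmed means (TMM). The gaps were then 0.64 and 0.66, and 0.62 and 0.64. A change of scale moves both medians nearly alike, so these gaps could change little. With a minimum mean of 50 the medians of all genes were 0.03 and 0.09. Relative to them the medians of the 70 genes left were -0.49 and -0.48.

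With JPX-0700, 0 of the 72 genes rose and 1 fell, MRPS27 (limma on log2(normalised count + 1), Benjamini-Hochberg adjusted p under 0.05 over all tested genes). Of all tested genes 5.28% rose and 0.496% fell, and a single gene of 72 against that background is not read as a result about the whole set. At an unadjusted p under 0.05 there were 8 genes (11.1%), 7 lower and 1 higher, against 19.6% of all tested genes. Of all 12301 genes 742 were lower and 1665 higher at that p. With JPX-0750, 0 rose and 0 fell, against 3.9% and 0.0732% of all tested genes. There 8 genes (11.1%) had an unadjusted p under 0.05 in limma, all lower, against 14.2% of all. Of all tested genes 297 were lower and 1451 higher at that p. In a weighted fit of the recovered reads (voom) 0 fell with JPX-0700 and 1, MRPS34, with JPX-0750. Without the 3 libraries that detected the fewest genes, 1 per group, 6 of the 72 fell (8.33%) and 1 rose (1.39%) with JPX-0700, against 5.32% and 19.8% of all genes tested there. With JPX-0750, 8 fell (11.1%) and 0 rose, against 4.62% and 20% of all genes.

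**Figure D3:**
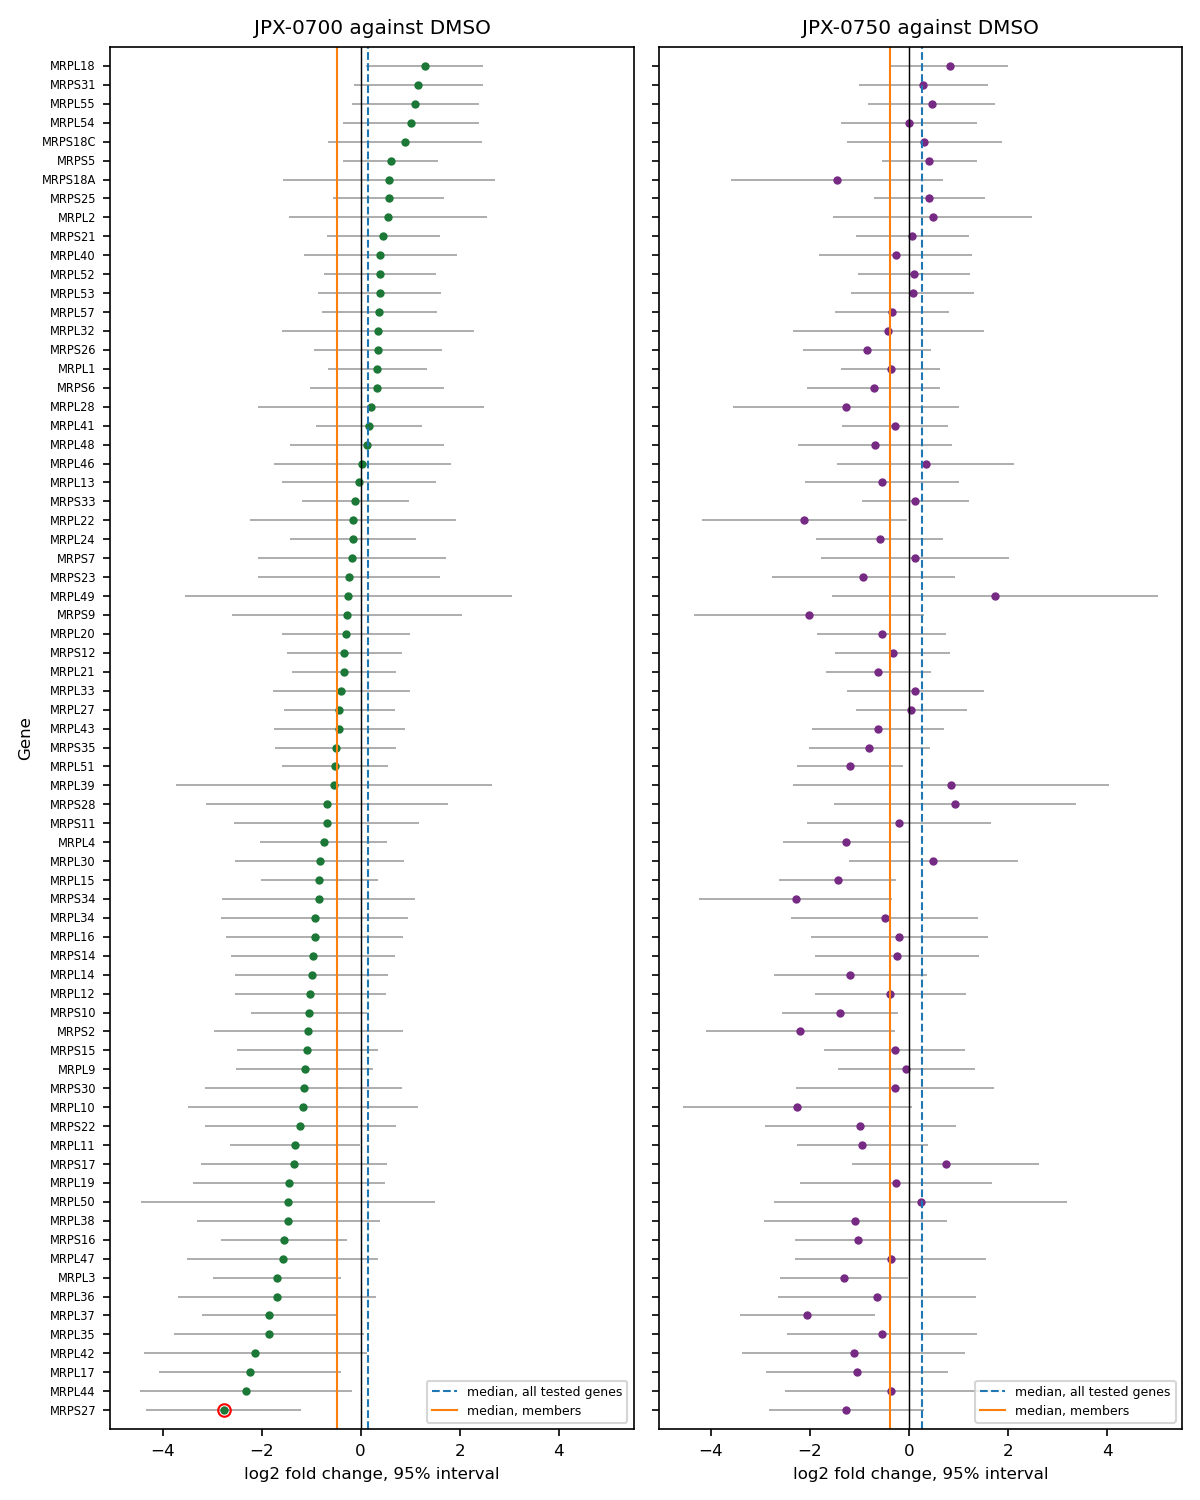
Log2 fold change (x axis) of the 72 tested genes with JPX-0700 and JPX-0750 against DMSO, with 95% intervals, in the order of the JPX-0700 values; the dashed line is the median of all tested genes, the solid orange line that of the mitochondrial ribosomal protein genes, and a red ring marks an adjusted p under 0.05. Only MRPS27 with JPX-0700 is ringed, and the medians are -0.47 and -0.38 beside 0.14 and 0.26.

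By the order of the libraries alone, 13 genes had all 3 JPX-0700 libraries below all 3 DMSO libraries and 3 had them above, against 10.3% and 16.5% of all tested genes. The 3 above were MRPS31, MRPS5 and MRPL55, named after their values were seen. With JPX-0750 the counts were 14 below and 2 above, against 9.18% and 19.7%, and the 2 above were MRPS28 and MRPL18. As a share of reads, 32 of 72 genes (44.4%) lay wholly below DMSO with JPX-0700, against 21.0% of all, and 0 wholly above, against 9.93%. With JPX-0750 these were 31 (43.1%) against 19.3%, and 0 against 12.8%. In 6 genes, MRPL42, MRPS16, MRPL37, MRPS10, MRPL17 and MRPL11, all 6 treated libraries were below all DMSO libraries in normalised counts (8.33%, against 4.52% of all), and in 0 were they all above, against 9.52%.

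Division by role showed lower medians in each class. The 45 tested genes with a bacterial counterpart had median log2 fold changes of -0.69 with JPX-0700 and -0.42 with JPX-0750, and the 27 without had -0.25 and -0.35. The 48 proteins of the large subunit had -0.47 and -0.40, and the 24 of the small subunit had -0.42 and -0.31, where MRPS18A and MRPS30 were counted as large by their place in the structure. No difference between these classes was tested.

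MRPS27, a small subunit protein of the pentatricopeptide repeat family without a bacterial counterpart, lies at chr5:72219403-72320240. Its normalised counts were 241, 539 and 174 in DMSO libraries, 27.7, 67.1 and 36.1 after JPX-0700 and 65.0, 95.5 and 258 after JPX-0750. All JPX-0700 libraries were below all DMSO libraries, and JPX-0750 replicate 3 lay within the DMSO range. The reads behind these values were 1997, 37 and 195. MRPS27 fell by 2.77 on the log2 scale with JPX-0700 (SE 0.74, 95% interval -4.33 to -1.20, limma adjusted p = 0.0338), a factor of 6.81. With JPX-0750 its log2 fold change was -1.26 (limma adjusted p = 0.462), and between the compounds it was 1.504 (limma adjusted p = 0.848).

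The call on MRPS27 held in 12 of 19 alternatives, over which the limma adjusted p ranged from 0.00474 to 0.260 and the log2 fold change from -3.49 to -2.30. It was lost without DMSO replicate 1 (adjusted p = 0.109), DMSO replicate 2 (0.260), DMSO replicate 3 (0.0506), JPX-0700 replicate 1 (0.0927) or JPX-0750 replicate 2 (0.0518), with the 2 groups alone (0.0509) and in the voom fit (0.0831). Exons of MRPS27 overlap those of PTCD2 on the opposite strand. The sources used here do not name the strand that was counted, so reads within such an overlap cannot be told apart. The libraries are 3′-end libraries, and whether the overlap lies near the 3′ end of MRPS27 was not examined. In all, exons of 34 of the 77 genes overlap a protein-coding gene.

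Among the other small subunit proteins several were lower without passing the test. MRPS16, whose inherited loss causes a respiratory chain disorder, had 325, 423 and 324 in DMSO libraries, 161, 209 and 52.8 after JPX-0700 and 171, 214 and 142 after JPX-0750. Every treated library was below every DMSO library. The log2 fold changes were -1.54 and -1.03 (limma adjusted p = 0.162 and 0.459), and its exons overlap DNAJC9 on the same strand.

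MRPS10, at chr6:42206807-42217861 and with YY1 letters at its start, had 316, 374 and 326 in DMSO libraries, 96.8, 190 and 233 after JPX-0700 and 137, 114 and 135 after JPX-0750. Here too no treated library reached the DMSO range. The log2 fold changes were -1.05 and -1.39 (limma adjusted p = 0.313 and 0.233). MRPS2, counterpart of a bacterial protein that binds late in assembly, had 110, 224 and 129, then 36.9, 67.1 and 139, then 34.2, 86.4 and 10.00 in the same order of groups. Its log2 fold changes were -1.05 and -2.19 (limma adjusted p = 0.534 and 0.253).

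MRPS34, a small subunit protein of the mitochondrial lineage, had 261, 848 and 432 in DMSO libraries, 327, 246 and 203 after JPX-0700 and 264, 282 and 10.00 after JPX-0750. Its JPX-0750 value was -2.29 (SE 0.93, limma adjusted p = 0.239), with replicate 3 far below DMSO and the other 2 libraries within the DMSO range. MRPS12, the counterpart of the bacterial protein at the decoding site, had log2 fold changes of -0.33 and -0.33. MRPS7 had -0.17 and 0.12 and MRPS22 had -1.22 and -0.98, and neither passed the test with either compound. Inherited defects of both of these genes cause respiratory chain disease.

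In the large subunit MRPL37, a protein of the mitochondrial lineage, had the smallest p with JPX-0750. It had 288, 431 and 241 in DMSO libraries, 101, 74.5 and 83.4 after JPX-0700 and 116, 86.4 and 39.98 after JPX-0750. The highest treated library was under a value of 120 and the lowest DMSO library above 240. The log2 fold changes were -1.85 (SE 0.65, limma adjusted p = 0.115) and -2.06 (SE 0.65, limma adjusted p = 0.0970). MRPL37 was called in 2 of 19 alternatives with JPX-0700 and in 4 of 19 with JPX-0750. Total-count scaling and the fit without the 3 libraries with the fewest genes were among them for both compounds. Over the alternatives the limma adjusted p ranged from 0.0109 to 0.420 with JPX-0700 and from 0.0192 to 0.440 with JPX-0750. Its exons overlap CYB5RL and SSBP3 on the opposite strand.

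MRPL3, the counterpart of a bacterial protein next to the peptidyl transferase centre, had 364, 431 and 207 in DMSO libraries, 129, 112 and 66.7 after JPX-0700 and 92.4, 109 and 210 after JPX-0750. The JPX-0700 libraries were all below DMSO, and JPX-0750 replicate 3 entered the DMSO range. The log2 fold changes were -1.68 and -1.31 (limma adjusted p = 0.130 and 0.343). MRPL2, also of that region, had 46.7, 79.0 and 17.2, then 55.3, 59.6 and 63.9, then 127, 59.1 and 23.3, with log2 fold changes of 0.56 and 0.47. The groups of MRPL2 overlapped.

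MRPL17, like MRPL15 a large subunit protein with a bacterial counterpart, had 111, 182 and 183 in DMSO libraries, 46.1, 82.0 and 8.34 after JPX-0700 and 61.6, 77.3 and 86.6 after JPX-0750. All 6 treated libraries were below DMSO, and JPX-0700 replicate 3 was the lowest. The log2 fold changes were -2.23 and -1.05 (limma adjusted p = 0.159 and 0.623). MRPL15 had 363, 327 and 233, then 143, 138 and 247, then 103, 136 and 96.6, and its log2 fold changes were -0.83 and -1.44 (limma adjusted p = 0.425 and 0.216).

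MRPL44, which resembles a ribonuclease and whose defects affect the heart, had 53.9, 157 and 78.6 in DMSO libraries, 36.9, 11.2 and 11.1 after JPX-0700 and 34.2, 40.9 and 215 after JPX-0750. The JPX-0700 values rest on 15 reads in all, and the log2 fold changes were -2.32 and -0.37 (limma adjusted p = 0.218 and 0.904). Of the stalk, which recruits elongation factors, MRPL11 had 206, 343 and 192, then 55.3, 145 and 106, then 103, 159 and 115. Every treated library of MRPL11 was below DMSO, and the log2 fold changes were -1.32 and -0.94 (limma adjusted p = 0.255 and 0.524). MRPL10 had -1.16 and -2.25, the latter on 22 reads, and MRPL12 had -1.02 and -0.38, and none of the 3 stalk genes passed the test.

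MRPL18 was the 1 gene higher at an unadjusted p under 0.05 with JPX-0700. This counterpart of the bacterial protein that binds 5S ribosomal RNA had 260, 404 and 251 in DMSO libraries, 599, 339 and 1934 after JPX-0700 and 575, 446 and 568 after JPX-0750. JPX-0700 replicate 2 lay within the DMSO range, and the 3 JPX-0750 libraries were above it. The log2 fold changes were 1.30 (SE 0.56, limma adjusted p = 0.213) and 0.82 (limma adjusted p = 0.544), and over the alternatives the JPX-0700 value ran from 0.50 to 1.85. Its start, 63 bases from that of the chaperonin gene TCP1 on the other strand, holds the heat shock letters printed above. TCP1 had log2 fold changes of 0.18 and 1.54 (limma adjusted p = 0.896 and 0.227).

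**Figure D4:**
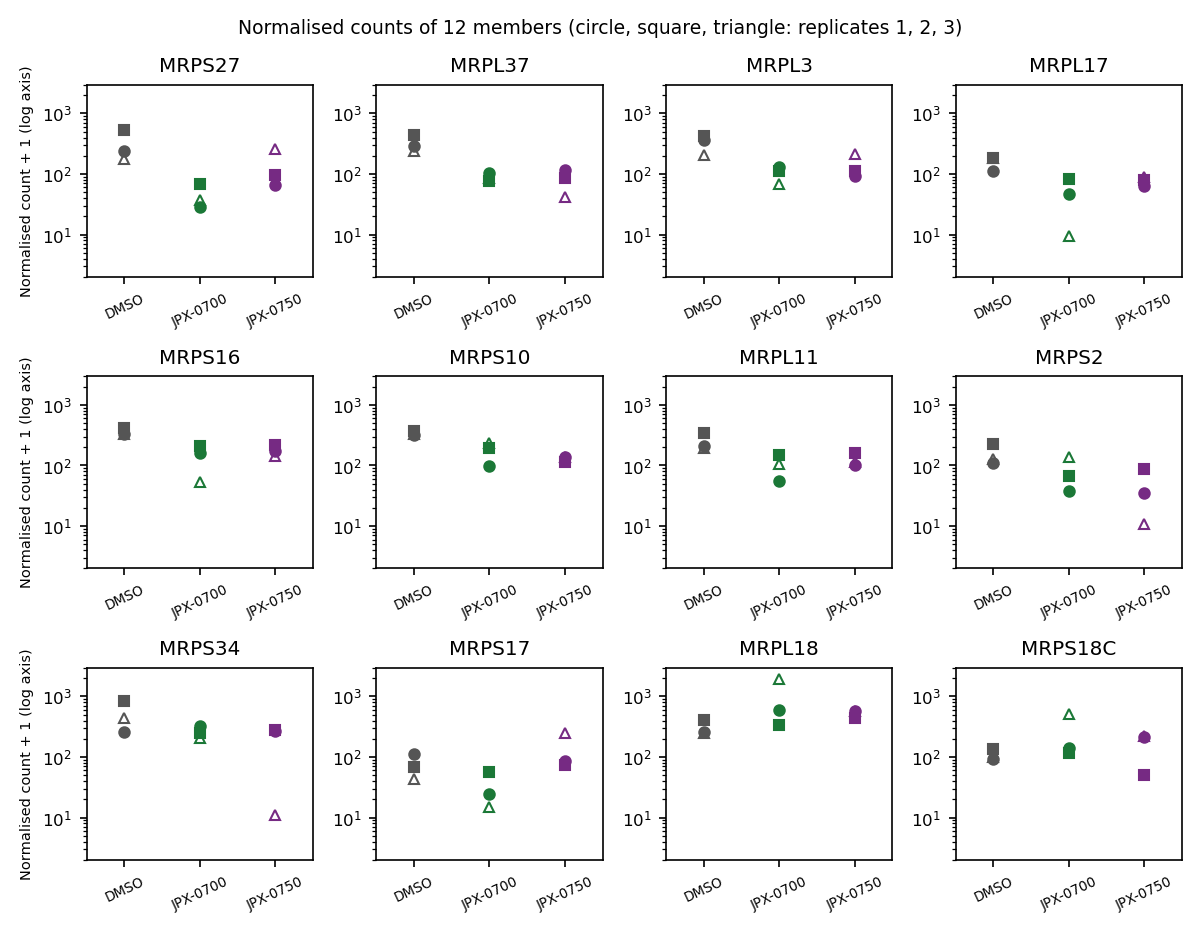
Normalised count plus 1 (log axis) of 12 mitochondrial ribosomal protein genes in each library, grouped by treatment; circles, squares and open triangles are replicates 1, 2 and 3. MRPS27 with JPX-0700 lies at 27.7 to 67.1 against 174 to 539 with DMSO, and the open triangles of replicate 3 are often the farthest treated points, as for MRPL18 at 1934 and MRPS34 at 10.00.

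MRPL33, MRPS21 and MRPL18 drew the most normalised counts, which are not corrected for length. MRPL33, counterpart of a bacterial large subunit protein, had 821, 615 and 672 in DMSO libraries, 700, 1513 and 142 after JPX-0700 and 1137, 864 and 453 after JPX-0750, with log2 fold changes of -0.39 and 0.13. MRPS21, of the small subunit, had 407, 775 and 420, then 539, 369 and 1728, then 555, 518 and 533, with log2 fold changes of 0.46 and 0.07. In both the spread within JPX-0700 was wider than the distance between groups. The 3 MRPS18 genes are copies of 1 bacterial family, with MRPS18A built into the large subunit. MRPS18A had 202, 84.7 and 87.7, then 111, 108 and 420, then 85.6, 146 and 5.00, and MRPS18C had 93.4, 135 and 98.0, then 138, 116 and 506, then 216, 50.02 and 218. Their groups overlapped, with log2 fold changes of 0.58 and -1.45 for MRPS18A and 0.90 and 0.31 for MRPS18C, and MRPS18B was listed at 0.

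JPX-0750 and JPX-0700 were compared directly, at the same time and at doses the labels do not give, so that matched doses cannot be shown. Of the 72 genes 0 rose and 0 fell, as for 0% and 0% of all tested genes. An unadjusted p under 0.05 in limma was found for 1 of them (1.39%), against 3.21% of all. All 3 JPX-0750 libraries were above all JPX-0700 libraries in 1 gene, MRPS17, against 4.72% of all tested genes, and below in 2, MRPL15 and MRPL1, against 3.63%. MRPS17, the counterpart of a bacterial protein that binds 16S ribosomal RNA, had 23.0, 55.9 and 13.9 after JPX-0700, 85.6, 72.8 and 243 after JPX-0750 and 110, 67.5 and 43.1 with DMSO. The difference was 2.09 on the log2 scale (95% interval 0.20 to 3.97, limma adjusted p = 0.848), and its exons overlap NIPSNAP2 on the same strand.

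MRPL22 and MRPS18A were lower with JPX-0750 than with JPX-0700 by -1.96 and -2.02 in log2 fold change, and MRPS26 by -1.20 (limma adjusted p = 0.848 for each). MRPL22, the counterpart of a bacterial protein that lines the exit tunnel, had 69.1, 74.5 and 297 after JPX-0700 and 41.1, 105 and 5.00 after JPX-0750. In both MRPL22 and MRPS18A, replicate 3 was the highest JPX-0700 library and the lowest JPX-0750 library. The median 95% interval over the 72 genes was 3.09 wide on the log2 scale, 22 intervals held both -1 and 1, and 0 lay within those limits. The comparison therefore does not show that the compounds act alike on these genes.

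Treated libraries of a group spread more widely than DMSO libraries. JPX-0700 replicate 3 was the library farthest from its group's median in 46 of the 72 genes (63.9%), and JPX-0750 replicate 3 in 47 (65.3%), against 72.3% and 66.0% of all tested genes. The median SD within a group, in log2 units, was 0.49 for DMSO, 1.01 for JPX-0700 and 0.71 for JPX-0750. A tested gene had a median of 175 to 568 reads in a DMSO library and 23.5 to 114 in a treated one. MRPL49, MRPL39 and MRPL50 were at 0 in JPX-0700 replicate 3.

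**Figure D5:**
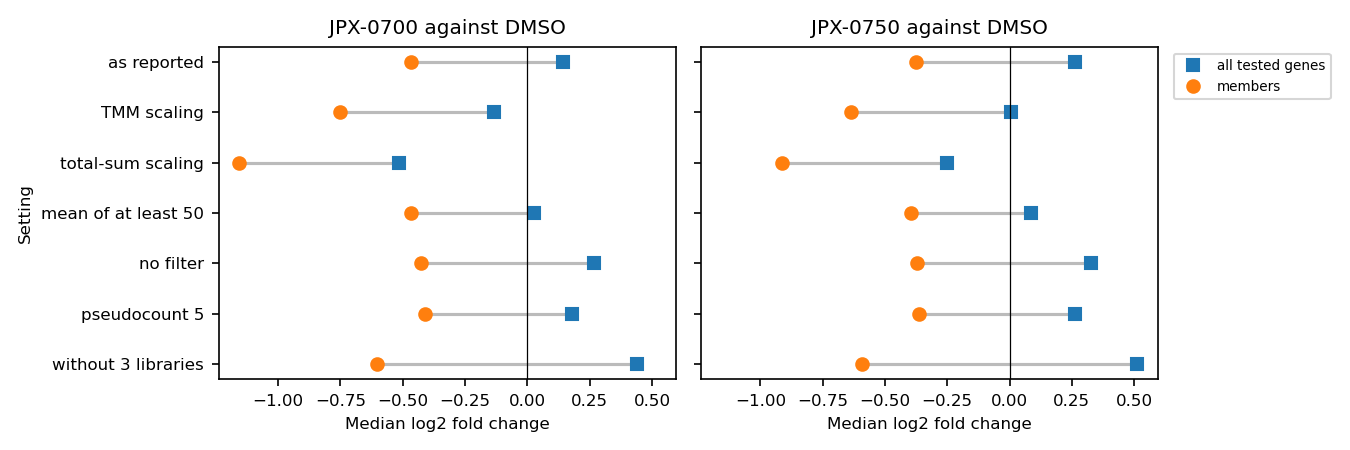
Median log2 fold change (x axis) of the mitochondrial ribosomal protein genes (circles) and of all tested genes (squares) under 7 settings, for each compound against DMSO. The circles lie left of the squares in each setting shown, with a gap of 0.61 and 0.64 as reported.

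Other genes of mitochondrial translation were taken from lists of fixed membership. Of 6 mitochondrial ribosome proteins outside the symbol rule, among them ICT1 (the older symbol of MRPL58), a peptidyl-tRNA hydrolase, 0 changed with either compound, with median log2 fold changes of 0.06 and -0.33. ICT1 had log2 fold changes of -1.10 and -0.43. Of 15 tested translation factors 1 fell (6.67%, against 0.496% of all tested genes) and 0 rose with JPX-0700, and 0 changed with JPX-0750. Their medians were 0.52 and -0.44 (the former was -0.21 with total-count scaling). The gene that fell was TUFM, the mitochondrial elongation factor Tu, with 1003, 1074 and 551 in DMSO libraries, 161, 354 and 225 after JPX-0700 and 199, 400 and 163 after JPX-0750. All 6 treated libraries were below DMSO, and TUFM fell by 1.84 on the log2 scale with JPX-0700 (limma adjusted p = 0.0497). That call held in 10 of 19 alternatives and was lost, among others, without any 1 of the 3 DMSO libraries, JPX-0700 replicate 1, JPX-0750 replicate 1 or JPX-0750 replicate 2, with adjusted p from 0.00917 to 0.233 over the limma alternatives. With JPX-0750 its value was -1.83 (limma adjusted p = 0.0649), and it was called in 6 of 19 alternatives, among them total-count and TMM scaling, with adjusted p from 0.0193 to 0.297 over them.

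Of 26 tested assembly factors 0 changed with either compound, with medians of -1.10 and -0.50 (-1.805 and -1.03 with total-count scaling). The normalised counts of the 24 factors found under their listed symbols summed to 1703 to 2068 in DMSO libraries. They summed to 1673, 1744 and 792 after JPX-0700, where replicate 3 was the lowest, and to 1582, 1728 and 1956 after JPX-0750. Of 10 genes for the expression of mitochondrial DNA 0 changed, with medians of -0.87 and -0.58. Among 73 nuclear subunits of oxidative phosphorylation 3 fell with JPX-0700, NDUFAB1, ATP5A1 and ATP5O (4.11%, against 0.496% of all tested genes). With JPX-0750 0 changed, and the medians with JPX-0700 and JPX-0750 were -0.22 and -0.47. These 3 calls held in 9, 13 and 9 of 19 alternatives, and each was lost without DMSO replicate 1 and without DMSO replicate 2. Cytosolic ribosomal proteins, which build the ribosome outside the mitochondrion, had medians of 0.71 and 0.35 over 76 genes, and 4 rose with JPX-0700 (5.26%) and 2 with JPX-0750 (2.63%), at or under the shares of all genes given above. With total-count scaling these medians were -0.02 and -0.19, on the other side of 0, and 2 and 0 genes rose, against 3.08% and 2.48% of all genes. Of the oxidative phosphorylation subunits 10 and 3 then fell, against 2.27% and 0.464% of all genes. The medians reported first stand beside 0.14 and 0.26 over all tested genes, and those with total-count scaling beside -0.52 and -0.25. The 13 messenger RNAs of the mitochondrial genome are not analysed here.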

How the data were processed

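RNA from 9 MV4-11 libraries in 3 groups was read with QuantSeq, per the labels' protocols. Per the submitters' processing notes, featureCounts 2.0.3, STAR 2.4.2a, DESeq2, SAMtools 1.4 and FastQC 0.11.9 were used, with the build GRCh38. The authors deposited normalised counts, and no source used here gives the other steps. In each library 100% of values were whole multiples of 1 step (tolerance 1e-06), so reads were recovered by division. limma 3.58.1 in R 4.3.3 was fitted to log2(normalised count + 1) over all 9 libraries, with variances following a trend on expression, for 12301 genes with a mean of at least 5. Tests are two-sided, and adjusted p-values run over all tested genes. Adding 1 makes folds of low genes smaller. "Rose" and "fell" mean an adjusted p under 0.05. The fit was tested on simulated data. RefSeq symbols matched 76 members and a synonym 1, and RefSeq gave coordinates. Named members were those past the threshold, the 5 with the smallest p per comparison, the 3 highest, members set by role, and those at or under the filter. Members, lists and tests were chosen with earlier results of these data known. Between the compounds every pair of same-numbered libraries deviated together (correlations 0.13 to 0.19). Differently numbered libraries among replicates 1 and 2 also did (0.07 and 0.15). These values therefore do not show a pairing by number, and the labels give none. Alternatives were scaling, pseudocount, filter, replicate block, left-out libraries, 2 groups alone and voom.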

Additional observations from a re-analysis of the deposited data

How the results depend on the processing

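With JPX-0700, 1 of 72 genes fell. The count was 3 with total-count scaling (2.27% of all genes fell there), 0 with only the 2 groups compared (0.285%), 0 in the voom fit (0.61%), and 0 to 1 when each library was left out in turn. Without the 3 libraries with the fewest genes it was 6 (5.32%), and 1 rose, MRPL39. This setting and the voom fit were chosen after seeing the data. With JPX-0750, 0 fell, against 1 with total-count scaling (0.464% of all genes), 2 with the 2 groups alone (0.603%), 1 in the voom fit (0.203%), 8 without those 3 libraries (4.62%), and 0 to 3 when each library was left out. The 3 were MRPL15, MRPL37 and MRPS10, without JPX-0700 replicate 3 (0.935%). The cause was not tested. Between the compounds 0 changed under each alternative. Calls over all genes numbered 710 and 489, and 3144 and 3085 without those 3 libraries. Relative to all genes the median was -1.04 to -0.49 (JPX-0700), -1.17 to -0.44 (JPX-0750) and -0.59 to 0.14 (JPX-0750 against JPX-0700, above 0 without JPX-0700 replicate 3). Total-count scaling gave medians of -1.16 and -0.91. With the replicate number as a block the counts were again 1 and 0. Deviations of same-numbered libraries correlated at -0.14 to -0.04 between DMSO and treated groups. The library with the fewest genes was replicate 1 with DMSO and replicate 3 with each compound. These correlations therefore cannot show whether the numbers pair those samples. Between the compounds a block on the number, in a fit of those 2 groups alone added after seeing the data, left the count at 0. Whether depth limited the calls was not tested.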
